A study of Mus musculus with 2 samples.

Results

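The 48 genes described here encode the sarcomere of skeletal muscle, its fast and slow fibre isoforms and the proteins that feed it with calcium and energy. They were taken by gene symbol from a fixed list, and all 48 were measured, of 22180 genes with a value. The samples were skin from the backs of 7-week-old male BALB/cAJcl mice, with 1 array from the FGF18 group and 1 array from the saline control. In the FGF18 group the hair had been removed to bring follicles into growth, and 6 days later 100 µg of the growth factor FGF18 was injected into the peritoneum in saline with heparin at 5 µg/µl. These mice received γ-rays to the whole body at 6 Gy 24 h after the injection, and the skin was taken 4 h later. The control is labelled only as saline. Whether its hair was removed and whether it was irradiated or given heparin are not stated for it, nor is the number of mice behind either array, so FGF18 cannot be told apart from those treatments as the source of a difference. With 1 array in each group there was no replicate and no test, and every difference compares these 2 arrays.

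Mouse back skin rests on a thin sheet of striated muscle, the panniculus carnosus, which twitches the skin and is made mostly of fast fibres. In a sarcomere, myosin thick filaments pull on actin thin filaments that are anchored at the Z disc. An action potential opens the calcium release channel of the sarcoplasmic reticulum, calcium binds troponin C and frees the thin filament, and a calcium pump then takes the ion back up. Fast and slow fibres differ in which paralog of each protein they use and in how they make ATP.

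The muscle signal of the skin was close to equal on the 2 arrays. Each difference is the FGF18 value minus the saline value after log2(intensity + 1), and the added 1 understates the folds of dim genes. Of the 48 genes 23 were higher on the FGF18 array, 24 were lower and 1 was equal, and the median difference was -0.02. Over all 22180 genes 10970 were higher, 10094 lower and 1116 equal, with a median of 0. The 44 genes that reached the median level over genes had a median of -0.02, against 0.07 over all 11090 genes at that level. Of those 11090 genes 62.0% were at 0 or above and 40.6% at 0 or below, so the muscle genes lay slightly below them. Intensities of the 48 genes summed to 13232 on the FGF18 array and to 13614 on the saline array, a ratio of 0.972. In whole skin, fewer muscle cells and less RNA per muscle cell cannot be told apart.

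Only 3 of the genes differed by at least 1.5-fold. The count was made over genes whose mean on both arrays reached the median over genes, a log2 level of 4.15, which 44 of the 48 did. Hspb7 was higher and Casq1 and Myh2 were lower, which is 2.27% and 4.55% of the 44 genes. Over all 11090 genes at that level the shares past 1.5-fold were 3.64% on the high side and 4.63% on the low side, so the muscle genes passed this fold about as often as genes in general. At 2-fold only Hspb7, higher, and Casq1, lower, remained, where the background was 0.379% higher and 1.65% lower. With a pseudocount of 16 in place of 1, Hspb7 was 1.99-fold higher and Myh2 1.46-fold lower, so neither kept its place in these counts, at 2-fold and at 1.5-fold. The middle of the 44 differences, from the lower to the upper quartile, ran from -0.22 to 0.16, against -0.13 to 0.25 over the 11090 genes, whose median was 0.07. As a rough scale, separate transcript clusters of 1 gene differed with a standard deviation of 0.24 over 319 genes. This spread is not probe error alone. Of the 48 differences 31 lay within that distance of 0. The median size of a difference was 0.17 over the 48 genes and 0.19 over all 22180 genes, so most genes lay within it as well. The cluster spread does not cover variation between mice.

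**Figure D1:**
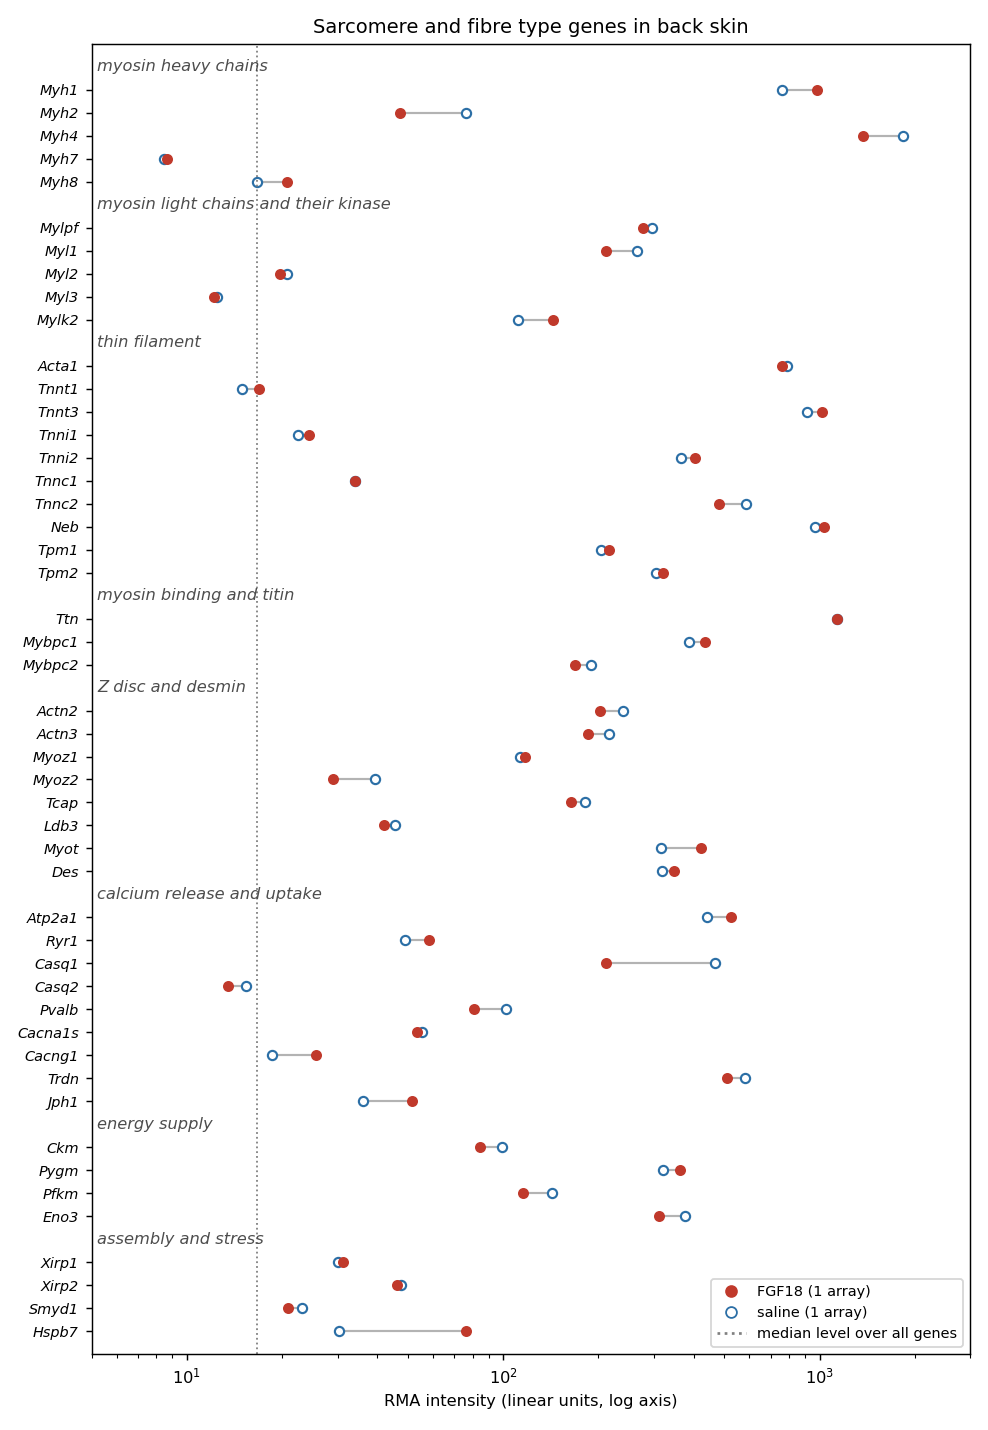
RMA intensity (linear units on a log axis) of the 48 genes on the FGF18 array (filled) and the saline array (open), ordered by role, with the median level over all genes as a dotted line. The points of a gene nearly touch in most rows, and the longest lines join the points of Hspb7 (76.0 in FGF18 skin, 30.3 in saline skin) and Casq1 (211 in FGF18 skin, 468 in saline skin).

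Hspb7 stood apart on the high side. It encodes a small heat shock protein of heart and skeletal muscle that acts on actin filaments. It read 76.0 on the FGF18 array against 30.3 on the saline array, a difference of 1.30 or 2.46-fold. Of the 11090 genes, 0.0812% were as high or higher. The other genes for assembly and strain did not share this. Xirp1, whose product binds actin at sites of strain and repair, read 31.2 on the FGF18 array and 30.1 on the saline array. Smyd1, a chaperone partner that helps to fold myosin, read 20.9 in FGF18 skin against 23.2 in saline skin. Xirp2, a relative of Xirp1, read 46.2 in FGF18 skin and 47.6 in saline skin, as the average of 2 clusters that pointed opposite ways. Its brighter cluster read 174 in FGF18 skin against 217 in saline skin, 1.25-fold lower, and its dimmer cluster 11.8 in FGF18 skin and 9.83 in saline skin. The promoter of Hspb7 is shown because it belongs to the gene with the highest difference. It spans chr4:141420529-141420828 (GRCm38.p6, RefSeq, plus strand), from 250 bases before the annotated start to 50 after it, and held no match to any of the 4 motifs described below.
Hspb7: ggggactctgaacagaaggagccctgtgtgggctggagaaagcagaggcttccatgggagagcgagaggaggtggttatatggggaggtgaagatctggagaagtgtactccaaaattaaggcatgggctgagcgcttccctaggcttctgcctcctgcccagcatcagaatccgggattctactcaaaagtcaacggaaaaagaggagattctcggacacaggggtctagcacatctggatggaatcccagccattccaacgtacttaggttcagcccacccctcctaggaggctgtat

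Casq1 stood apart on the low side. Its product, calsequestrin 1, is the main calcium store of the sarcoplasmic reticulum in fast fibres. It read 211 on the FGF18 array against 468 on the saline array, a difference of -1.14 or 2.21-fold lower. Of the 11090 genes 1.22% were as low or lower. Its promoter at chr1:172219846-172220145 (GRCm38.p6, RefSeq, minus strand) is printed with capitals on the E-box letters CAGCTG, a core that myogenic factors such as MyoD can bind, 195 bases upstream of the start.
Casq1: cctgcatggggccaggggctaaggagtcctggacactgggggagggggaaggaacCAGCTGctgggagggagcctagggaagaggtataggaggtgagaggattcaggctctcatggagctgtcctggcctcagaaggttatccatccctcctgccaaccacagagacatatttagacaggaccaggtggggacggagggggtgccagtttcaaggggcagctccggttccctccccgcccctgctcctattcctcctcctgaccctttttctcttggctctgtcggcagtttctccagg

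The partners of calsequestrin in the release and uptake of calcium did not share the size of its difference and were split in direction. Casq2, the calsequestrin of heart and slow fibres, was below the median level and read 13.5 in FGF18 skin and 15.4 in saline skin. Trdn encodes triadin, which tethers calsequestrin to the release channel, and read 511 in FGF18 skin against 581 in saline skin, a difference of -0.19. The release channel gene Ryr1 read 58.3 in FGF18 skin and 49.1 in saline skin, at 0.24, and both of its clusters were higher on the FGF18 array. Its voltage sensor gene Cacna1s read 53.3 in FGF18 skin and 55.3 in saline skin, which is near equal. A pair of the genes lay on the high side without reaching 1.5-fold. Jph1, whose product junctophilin 1 holds the surface tubule against the reticulum, read 51.7 on the FGF18 array against 36.1 on the saline array, 1.42-fold higher. Cacng1, a subunit of the same voltage-gated channel, read 25.6 in FGF18 skin and 18.6 in saline skin, at 0.44. Uptake genes were split, since Atp2a1, the calcium pump of fast fibres, was at 0.25 with 524 in FGF18 skin and 442 in saline skin, while the calcium buffer gene Pvalb was at -0.33 with 81.1 in FGF18 skin and 102 in saline skin. Over these 9 genes 4 were higher and 5 lower on the FGF18 array, and their median was -0.05. Without the dim Casq2, the 8 genes at the median level had a median of 0.10.

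The myosin heavy chains, the motors that define fibre types, differed from one another more than any other role group except the calcium and assembly genes, by the standard deviation of the differences at the median level. Myh2, the motor of type IIa fibres, read 47.3 on the FGF18 array against 76.2 on the saline array, a difference of -0.68 or 1.60-fold lower, and 3.56% of the 11090 genes were as low. Myh4, the motor of the fastest type IIb fibres, read 1370 on the FGF18 array against 1832 on the saline array, 1.34-fold lower. Myh1, the motor of type IIx fibres, pointed the other way, with 981 on the FGF18 array against 763 on the saline array, 1.29-fold higher. The slow and cardiac motor gene Myh7 read 8.64 in FGF18 skin and 8.50 in saline skin, below the median level on both arrays. Myh8, the perinatal motor, read 20.7 in FGF18 skin and 16.7 in saline skin, but its 2 clusters disagreed. One read 21.1 in FGF18 skin against 13.6 in saline skin, and the other had the same value of 20.4 on both arrays. Myosin genes are close paralogs, and whether their probes shared signal was not tested.

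Myh2, Myh1, Myh4 and Myh8 follow one another on chromosome 11 with no other protein-coding gene between them, so these neighbours did not point one way. Their promoters are related, and a stretch is shown to let them be compared. Capitals mark a match to the MEF2 site, bound by a family of muscle transcription factors, in Myh1 (chr11:67199881-67199910), Myh4 (chr11:67237620-67237649) and Myh8 (chr11:67277015-67277044). The same stretch of Myh2 (chr11:67170849-67170878) held no match. All are on the plus strand of GRCm38.p6, from RefSeq, and the marked letters begin 211, 182 and 99 bases upstream of the start in Myh1, Myh4 and Myh8.
Myh2: tcttctcaaattatccataggagatttacc
Myh1: acaactcaaaTTATTTATAGgagattgatt
Myh4: ccctgtcaaaTTATTTATAGatgacaagaa
Myh8: ccttgtcaaaTTATTTATAGgagattggtt
The whole Myh2 promoter, chr11:67170777-67171076, is given because this was the myosin past 1.5-fold, with TATAAA in capitals 11 bases into the transcribed side of the annotated start.
Myh2: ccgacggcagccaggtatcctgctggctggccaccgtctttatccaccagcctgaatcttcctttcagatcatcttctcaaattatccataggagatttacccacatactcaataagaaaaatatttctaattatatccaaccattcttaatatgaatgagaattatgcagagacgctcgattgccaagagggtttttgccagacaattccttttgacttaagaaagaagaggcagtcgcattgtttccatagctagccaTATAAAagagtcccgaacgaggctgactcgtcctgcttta

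Promoter windows were found for 36 of the 48 genes. The 4 motifs, searched on both strands, were the E-box CAGCTG, the TATA box letters TATAAA, the MEF2 site and the CArG box of serum response factor, and a MEF2 match can hold the TATA letters in reverse. CAGCTG was in 16 of the 36 windows (44.4%), against 18.3% of 27025 genes with a window, and the MEF2 site in 8 (22.2%), against 3.70%. TATAAA was in 9 and the CArG box in 4, or 25% and 11.1%, against 15.7% and 1.81%. The differences of genes with and without each motif are given as a description. Genes with CAGCTG had a median of -0.06 and the 20 without it one of -0.04, and genes with the MEF2 site had one of -0.11 and the 28 without it one of -0.05. The 9 genes with TATAAA had a median of -0.06 and the 27 without it one of -0.04. The 4 genes with a CArG box ran from -0.42 (Myh4) to -0.03 (Myl3, below the median level), with a median of -0.09. The 32 genes without the box had a median of -0.05. Acta1, Ldb3 and Myl3 lay within the cluster spread of 0.24. A match describes letters in the window only.

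Among the light chains of myosin only Myl1 was lower by more than the cluster spread of 0.24. Myl1, the essential light chain of fast fibres, read 212 on the FGF18 array against 264 on the saline array, a difference of -0.32. Mylpf, the fast regulatory light chain, read 276 in FGF18 skin and 296 in saline skin, which is near equal. Myl2, the slow regulatory chain, read 19.8 in FGF18 skin and 20.7 in saline skin. The slow essential chain gene Myl3 was below the median level at 12.2 in FGF18 skin and 12.4 in saline skin. Mylk2, the skeletal muscle kinase that phosphorylates the regulatory chain, was higher and read 144 on the FGF18 array against 111 on the saline array, at 0.37.

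Thin filament genes varied least among the larger role groups. Their 10 differences ran from -0.28 to 0.17, with 7 higher, 2 lower and 1 equal. Acta1, the actin of skeletal muscle, read 759 in FGF18 skin and 789 in saline skin. Neb encodes nebulin, the ruler along the thin filament, and read 1036 in FGF18 skin and 968 in saline skin. The tropomyosin genes Tpm1 and Tpm2 had differences of 0.09 and 0.08. Among the troponins, which switch the filament on with calcium, the fast genes Tnnt3 and Tnni2 were at 0.16 and 0.14. They lie on chromosome 7 with 1 protein-coding gene between them. Tnnc2, the calcium-binding troponin of fast fibres, was lower at 482 in FGF18 skin against 587 in saline skin, or -0.28. The slow partners were dim. Tnnt1 read 16.9 in FGF18 skin and 14.9 in saline skin, below the median level in its mean, and Tnni1 was at 0.10 with 24.3 in FGF18 skin and 22.5 in saline skin. Tnnc1 had the same deposited value, 34.1, on both arrays, as did 2026 of 41345 clusters.

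Titin and the myosin binding proteins, which hold the thick filament in place, were also near equal. Ttn read 1139 in FGF18 skin and 1133 in saline skin. The slow and fast myosin binding protein genes Mybpc1 and Mybpc2 were at 0.17 and -0.16. In the Z disc 3 genes were higher and 5 lower on the FGF18 array, and their median was -0.13. Myot encodes myotilin, which cross-links actin at the Z disc, and read 423 on the FGF18 array against 316 on the saline array, 1.34-fold higher. Myoz2, the slow fibre partner of calcineurin at the Z disc, was the lowest at 28.9 in FGF18 skin against 39.2 in saline skin, 1.35-fold lower, while its fast relative Myoz1 was at 0.05. The cross-linkers of actin Actn2 and Actn3 were at -0.24 and -0.22, the titin cap gene Tcap at -0.15 and Ldb3 at -0.12. Des, the desmin gene, was at 0.13 with 347 in FGF18 skin and 317 in saline skin. Smooth muscle also makes desmin.

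Of the 4 genes for energy supply 3 were lower. Eno3, the muscle enolase, read 311 on the FGF18 array against 376 on the saline array, a difference of -0.27. Pfkm, the muscle phosphofructokinase that sets the pace of glycolysis, read 115 in FGF18 skin against 143 in saline skin, or -0.31. Ckm, the muscle creatine kinase, was at -0.23, with its brighter cluster at 380 in FGF18 skin and 419 in saline skin. Pygm, which releases glucose units from glycogen, was at 0.18 with 362 in FGF18 skin and 319 in saline skin. None of these 4 reached 1.5-fold.

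**Figure D2:**
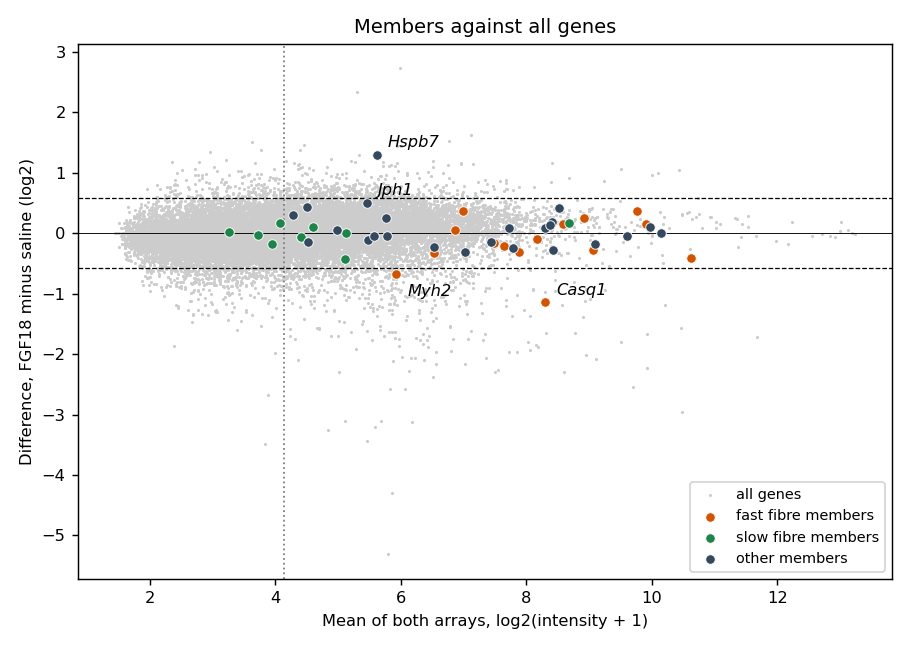
Difference (FGF18 minus saline, log2) against mean level of both arrays (log2) for all genes (grey) and for fast fibre, slow fibre and other genes of the 48, with dashed lines at 1.5-fold and a dotted line at the median level. Hspb7 (1.30) lies above the band and Casq1 (-1.14) and Myh2 (-0.68) lie below it, and among the brightest genes Myh4 (-0.42) and Myh1 (0.36) lie on opposite sides of 0.

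Set side by side, the median of the fast isoforms lay slightly below that of the slow isoforms. The 15 fast genes had a median difference of -0.16, with 6 higher and 9 lower, and 2 of them, Casq1 and Myh2, at least 1.5-fold lower. All 15 were at or above the median level. The 9 slow genes had a median of 0, with 4 higher, 4 lower and 1 equal, and none reached 1.5-fold. Only 5 of these 9 were at or above the median level. The slow median was the value of Tnnc1, whose deposited value was the same on both arrays. Mybpc1 alone gave 436 of the 594 summed over the slow list on the FGF18 array. With the trend of difference on intensity subtracted, the fast median was -0.27. Whether the lists differ could not be tested with 1 array in each group.

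**Figure D3:**
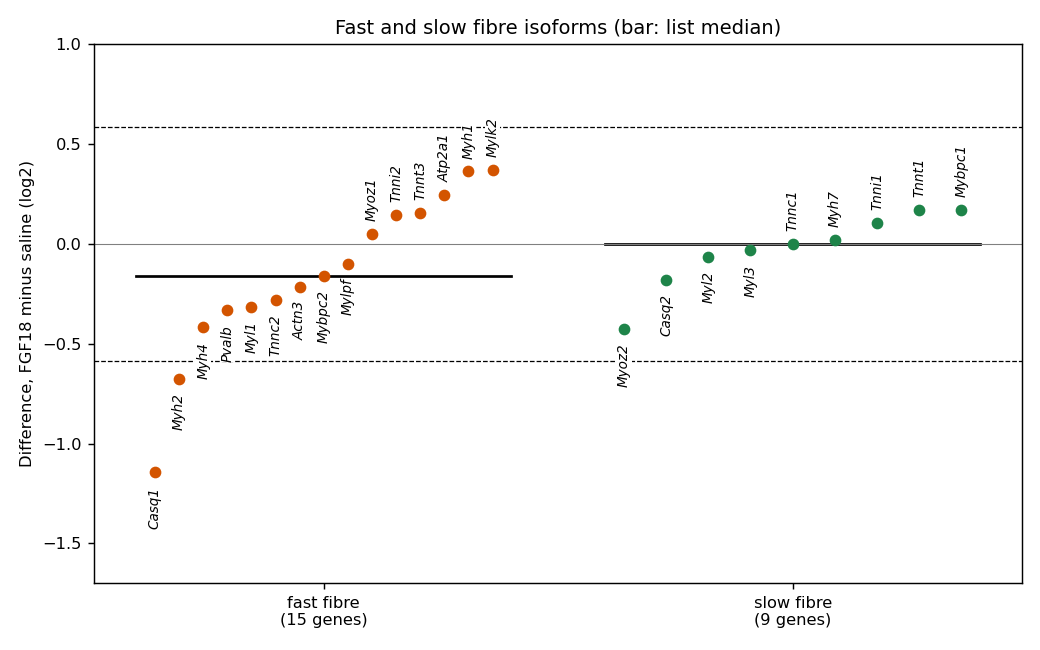
Difference (FGF18 minus saline, log2) of each gene in the fast fibre list (15 genes) and the slow fibre list (9 genes), in order within the list, with bars at the list medians of -0.16 and 0 and dashed lines at 1.5-fold. Casq1 and Myh2 are the points beyond the dashed lines.

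Other muscle genes, from lists outside the 48, gave small shifts that were not all one way. Of 23 further sarcomere genes 16 were higher and 7 lower on the FGF18 array. Their median was 0.16, and none at the median level reached 1.5-fold. All 23 ran from -0.35 to 0.61. Among those at the median level on both arrays, Lmod2, which lengthens thin filaments, was the highest. It read 300 in FGF18 skin against 203 in saline skin (0.56), and its relative Lmod3 was the lowest of these at -0.28. Of 13 further genes of the triad and of membrane excitation 5 were higher and 8 lower on the FGF18 array. Their median was -0.13, from the chloride channel gene Clcn1 at -0.43 to Jsrp1 at 0.30 among genes at the median level on both arrays. Camk2a, a calcium-dependent kinase gene named after its values were seen, was lower still. It read 13.9 on the FGF18 array, below the median level, against 26.8 on the saline array, at -0.90. Oxidative muscle genes had a median of 0.08 over 12 genes. Their highest was Sln, which encodes sarcolipin, a small inhibitor of the calcium pump. Sln read 83.8 on the FGF18 array against 37.9 on the saline array, 2.18-fold higher, and the mitochondrial creatine kinase gene Ckmt2 was the lowest at -0.40.

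Glycolysis and glycogen genes outside the 48 were the lowest of the 8 other muscle lists by median. Of 12 genes 9 were lower and 3 higher on the FGF18 array, and the median was -0.32. The muscle phosphoglycerate mutase gene Pgam2 read 18.7 on the FGF18 array against 27.2 on the saline array, at -0.52. Fbp2, the muscle fructose bisphosphatase of the reverse pathway, was the highest at 56.5 in FGF18 skin against 32.6 in saline skin, 1.71-fold higher. Several genes of this list are used by all cells, so their values are those of the whole skin. Intensities of the 12 genes summed to 998 in FGF18 skin and 1199 in saline skin.

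With dim genes counted, each list of markers of neighbouring tissue held both higher and lower genes. Of 10 adipocyte markers 9 were measured, 5 higher and 4 lower, with a median difference of 0.02. They ran from the resistin gene Retn at -0.55 to Plin4, a lipid droplet coat gene, at 1.02. Their intensities summed to 846 in FGF18 skin and 630 in saline skin, and most of that gap came from Fabp4, a fatty acid carrier gene also named after its values were seen, at 545 in FGF18 skin against 371 in saline skin. All 9 fibroblast markers were measured, 3 higher and 6 lower, with a median of -0.25. They ran from the matrix gene Lum at -0.95 to Dcn, another matrix gene, at 0.42, and summed to 1089 in FGF18 skin and 1187 in saline skin. Of 7 smooth muscle markers 5 were higher and 2 lower, and the median was 0.18, from Myh11 at -0.02 to Acta2 at 0.33 among those at the median level on both arrays. The 5 at that level had a median of 0.21. All 7 summed to 279 in FGF18 skin and 244 in saline skin. Over 4 of 7 peripheral nerve markers 1 was higher and 3 lower, with a median of -0.08 and sums of 66.3 in FGF18 skin and 70.1 in saline skin. The 2 nerve markers at the median level, Mbp at -0.13 and Pmp22 at -0.02, were both lower. Of 5 endothelial markers 3 were higher and 2 lower, and the median was 0.21, while their sums were 84.2 in FGF18 skin and 92.5 in saline skin. The sum and the median of all 5 pointed opposite ways. The 3 whose mean reached the median level had a median of -0.43, with Cdh5, a junction gene of vessels, at -0.66. No marker was at 0. The part of these markers in the muscle differences was not tested.

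**Figure D4:**
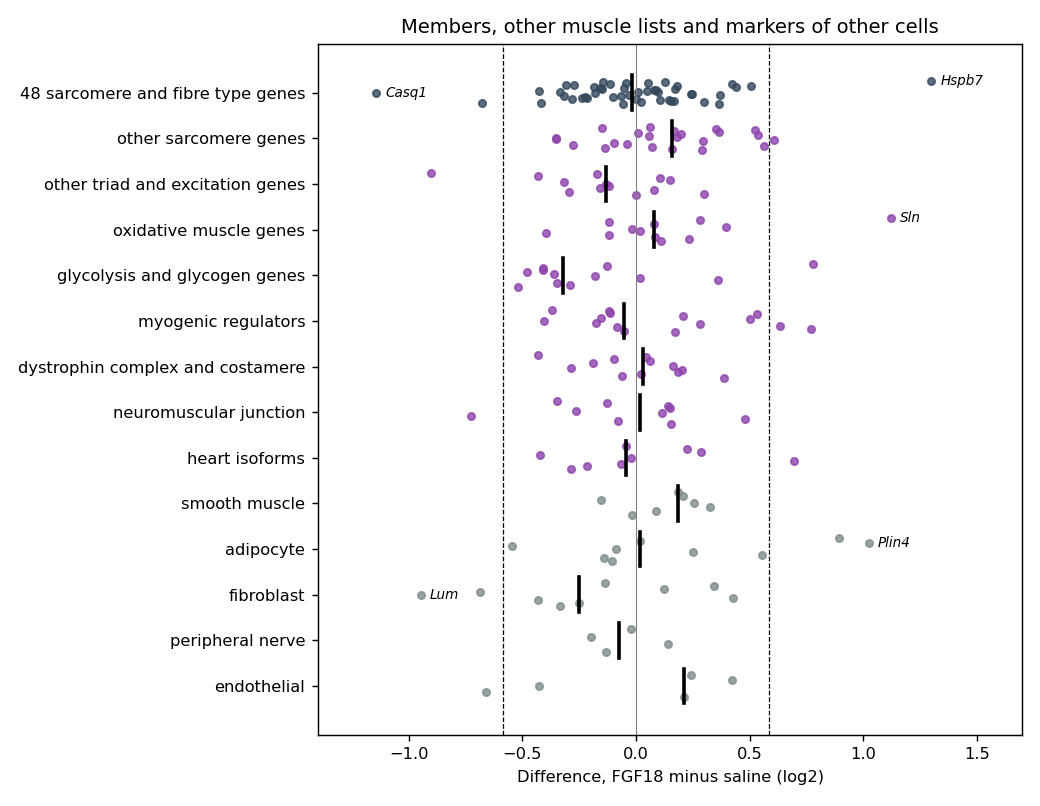
Difference (FGF18 minus saline, log2) of each gene in the 48 sarcomere and fibre type genes, in 8 other muscle lists and in 5 marker lists of other cells, with bars at list medians and dashed lines at 1.5-fold. The median of the 48 genes lies at -0.02 and that of the glycolysis and glycogen list at -0.32.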

How the data were processed

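RNA from skin of 1 FGF18 sample and 1 saline sample was hybridised to Affymetrix Mouse Gene 2.0 ST arrays. The submitters' processing notes name Affymetrix Expression Console and RMA, which subtracts background, gives all arrays 1 distribution and combines the probes of a transcript cluster. Their versions were not given in the sources used here. Each deposited value is an intensity on a linear scale, as judged from its range (1.44 to 11532 for FGF18, 1.39 to 11488 for saline), with a median of 13.8 on the FGF18 array and 14.0 on the saline array. The number of arrays limits the precision.

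Of 41345 transcript clusters, 23521 had 1 symbol in the platform annotation, 1814 several and 16010 none. Clusters with 1 symbol were averaged per symbol on the log2(intensity + 1) scale, giving 22180 genes, and 4 of the 48 genes had more than 1 cluster. Folds of 1.5 and 2 stood in for calls over genes that reached the median level, with no test. All measured members could be named. From other lists the highest and lowest gene at the median level on both arrays, and those past 2-fold, were named. Members and lists were chosen with earlier results of these data known. Promoters are from RefSeq (GRCm38.p6). Alternatives were a pseudocount of 16 or none, other filters, centring, a lowess trend (fraction 0.3), the brightest cluster, and clusters with several symbols under the first. The calculation was tested on simulated data with changes larger than 2-fold, in genes above the median level. The simulated noise was smaller than the spread between clusters of 1 gene. That run therefore does not cover folds near 1.5 or dim genes. Python 3.11.15, pandas 2.3.3, numpy 2.4.6 and statsmodels 0.14.6 were used.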

Additional observations from a re-analysis of the deposited data

How the results depend on the processing

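No paired analysis was possible because each group had 1 array. Counts of genes past a fold are small, so 1 gene decides them. With a pseudocount of 16, 1 gene was at least 1.5-fold lower, against 2 at first, because Myh2 was then 1.46-fold lower, and 0 were at least 2-fold higher, against 1, because Hspb7 was then 1.99-fold higher. A larger pseudocount shrinks folds of dim genes by construction. With the intensity trend subtracted the median of the fast list was -0.27, against -0.16 at first. The other counts and medians, over the alternatives run, moved by less than 1.5 times or by less than 0.1 on the log2 scale. They include the 75th percentile filter and leaving out the 4 genes with more than 1 cluster, both chosen after seeing the data. Of 6 alternatives for values, 2 (centring and clusters with several symbols) left all 48 genes at their first value. Centring could not do otherwise, since the median over genes was 0. Over the other 4, 42 of the 48 differences did not change sign and 6 did (Myoz1, Neb, Tpm1, Tpm2, Ttn and Xirp1, all nearer 0 than the cluster spread of 0.24). For a gene with 1 cluster, neither pseudocount nor the brightest cluster could change the sign, so only the intensity trend could do so. The 42 include Tnnc1, which went from 0 to -0.08, and Myh8, which went from 0.30 to 0. Casq1 ran from 2.13-fold to 2.39-fold lower and Hspb7 from 1.99-fold to 2.51-fold higher. With the brightest cluster alone Myh8 was at 0 and Xirp2 at -0.32. Low intensity limits Myh7, Myl3, Casq2 and Tnnt1, which are given without folds.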

Other observations

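Counted over all measured genes, other programmes of the muscle cell gave no common direction. Of 15 myogenic regulators 7 were higher and 8 lower on the FGF18 array, with a median of -0.05. The 10 whose mean reached the median level had a median of 0.19, against 0.07 over all genes at that level. Myf6, the regulator most abundant in adult fibres (also called MRF4), read 82.9 on the FGF18 array against 48.2 on the saline array, 1.71-fold higher, and Mef2c, a MEF2 family factor, read 41.0 in FGF18 skin against 54.6 in saline skin, 1.33-fold lower. Over 12 genes of the dystrophin complex and costamere, which tie the fibre to its surroundings, the median was 0.03. Dmd, the dystrophin gene, was the highest at 0.39 and the integrin gene Itga7 the lowest at -0.43.

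Genes of the neuromuscular junction were mostly dim, with 2 of 10 at the median level, Lrp4 at -0.35 and Ache at -0.13. Of 9 isoforms known from the heart, 2 were at the median level on both arrays. Tnnt2, the cardiac troponin T gene, read 84.0 in FGF18 skin against 51.5 in saline skin, 1.62-fold higher, and Tnni3 read 30.4 in FGF18 skin and 30.8 in saline skin. None of these differences was tested, since each group had 1 array.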
